A study of Mus musculus with 16 samples.

Results

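Mitochondrial ribosomal proteins were followed in mouse liver across 2 array experiments on the integrated stress response (ISR). In this response, phosphorylation of the initiation factor eIF2α slows translation and reprograms transcription. The members were all probe sets whose platform gene symbol begins with Mrpl or Mrps and a digit, the naming of large and small subunit proteins. This gave 127 of the 22626 probe sets tested and 74 of 12393 genes. By symbol, 88 probe sets for 47 genes belonged to the large subunit and 39 probe sets for 27 genes to the small subunit. 3 genes go against their symbol. Mrps30 and Mrps18a sit in the large subunit in structures of the ribosome, and Mrps36 is now known as Kgd4 of the oxoglutarate dehydrogenase complex and is kept here because its symbol fits the rule. A further 3 probe sets that list a member symbol together with another gene were not used.

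The mitochondrial ribosome translates the few proteins that mitochondrial DNA encodes, all of them subunits of the respiratory chain and ATP synthase. Its rRNAs come from mitochondrial DNA, while every one of its proteins is made from a nuclear gene and imported. Some of these proteins descend from bacterial ribosomal proteins and others were added in the mitochondrial lineage. Liver is rich in mitochondria.

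All mice were male and of the FvB/n strain, and ages, diet lengths and the time after injection are not stated in the labels. In the first experiment the mice were labelled TTR::Fv2E-PERK, high expression, in which the transthyretin promoter drives a chimera of the stress kinase PERK that the compound AP20187 joins into active dimers. The chimera was present in both groups, 4 arrays labelled untreated (the design text speaks of a mock injection) and 4 labelled AP20187-treated, and mice without the transgene were not analysed here. In the second experiment wildtype mice and Alb::GC mice, in which the hepatocyte-specific albumin promoter drives an active fragment of GADD34 (Ppp1r15a), which removes the phosphate from eIF2α, ate chow low in fat (LFD, low fat diet) or rich in fat (HFD, high fat diet), with 2 arrays in each of the 4 groups. The design text also describes mice with and without Atf4, which were not analysed here. The source field reads as both genotypes in LFD wildtype replicate 2 and as a single letter in AP20187 replicate 4. Both were placed by their descriptions, and the main counts are also given without them.

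The deposited values were ratios around 1, given to 2 decimals, with the 2 experiments scaled apart and the denominator of the ratio unstated. Array medians over all probe sets lay between 0.94 and 1.02. Such a ratio holds no absolute level, so members could not be ranked by level, and the liver identity of the samples could not be checked from the level of its markers. Changes are log2 differences of the ratio plus 0.05, with standard errors (SE), tested with limma and adjusted by Benjamini-Hochberg over all 22626 probe sets at a threshold of 0.05. Whether the arrays came from separate animals is not in the labels, so the p-values reflect only how far these samples spread, and that spread may be technical.

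Most members that passed the test fell with AP20187. The test called 67 of the 127 probe sets lower (52.8%) and 4 higher (3.15%), where 20.4% of all probe sets were called lower, 13.7% higher and 34.1% in either direction. The median change was -0.50 over the members and -0.13 over all probe sets, and 110 members lay below 0. In 69 members every treated array lay below every untreated array, which held for 20.5% of all probe sets. In 5 members every treated array lay above, which held for 14.5% of all probe sets. Without AP20187 replicate 4, 67 members were called lower and 2 higher, and without AP20187 replicate 1, 64 lower and 2 higher.

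The median ratio of the members in each array showed the same separation. It was 1.21, 1.10, 1.13 and 1.27 in the untreated arrays and 0.85, 0.79, 0.94 and 0.81 in the treated arrays. All 4 untreated arrays lay above all 4 treated arrays, and AP20187 replicate 3 was the highest of the treated arrays. In the diet experiment the same median on LFD was 1.19 and 1.08 for wildtype and 0.93 and 1.03 for Alb::GC, and on HFD 0.94 and 0.97 for wildtype and 0.95 and 0.89 for Alb::GC. There the LFD wildtype arrays were the highest, and the ranges of the other groups overlapped.

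**Figure D1:**
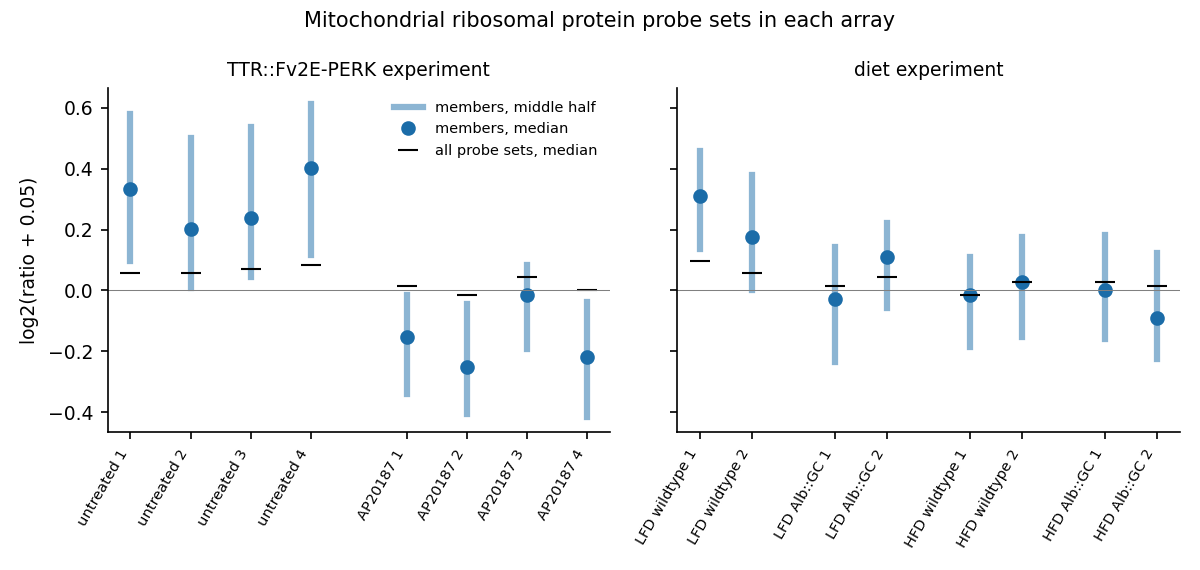
Log2(ratio + 0.05) of the 127 member probe sets in each of the 16 arrays, with the TTR::Fv2E-PERK experiment on the left and the diet experiment on the right. Points are the median of the members, thick lines their middle 50% and dashes the median of all probe sets. The untreated arrays lie above the treated arrays, and the LFD wildtype arrays are the highest of the diet experiment.

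Both subunits contributed to the fall. In the large subunit 49 of 88 probe sets were called lower and 3 higher, with a median change of -0.52. In the small subunit 18 of 39 were called lower and 1 higher, with a median of -0.41. With Mrps30 and Mrps18a counted in the large subunit and Mrps36 left out, the counts were 49 lower of 90 and 17 lower of 36. Proteins with a bacterial homologue had 41 of 78 probe sets lower and a median of -0.50, and proteins specific to mitochondria 25 of 48 and a median of -0.48. No difference between these classes was tested.

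**Figure D2:**
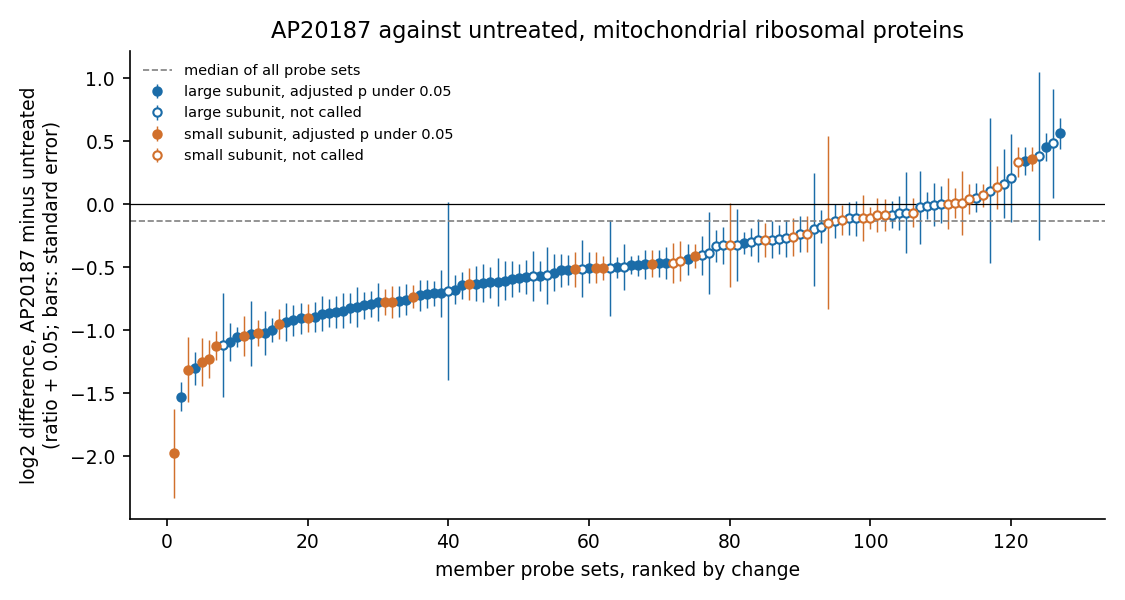
Log2 difference between the AP20187-treated and untreated arrays for each of the 127 member probe sets, ranked, with standard errors as bars. Blue marks the large and orange the small subunit, filled points passed the threshold, and the dashed line is the median of all probe sets. Of the members 67 were called lower and 4 higher, and both colours run along the whole of the ranking.

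The falls were mostly moderate. Of the 67 calls, 13 were at least 2-fold, 35 lay between 1.5-fold and 2-fold, and 19 were smaller. By gene, 52 of 74 had some probe set lower, 33 had all of their probe sets lower, 3 had some probe set higher, and 19 had none called. No gene had probe sets called in opposite directions. Of the 33 genes with several probe sets, 6 had all of them lower, and of the 41 with a single probe set, 27 were lower.

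Among large subunit members, the largest fall was that of Mrpl18, a protein of the central protuberance, the knob on the crown of the large subunit. Its ratio was 2.94, 2.18, 2.60 and 2.98 in the untreated arrays and 0.85, 0.87, 0.90 and 0.94 in the treated arrays. The groups lay far apart and the treated arrays were close to each other. Mrpl18 fell by 1.53 on the log2 scale (SE 0.12, limma adjusted p = 0.000102). Of the 7 probe sets for Mrpl18, Mrpl38, Mrpl40, Mrpl46 and Mrpl48, 5 genes of the central protuberance, 6 were lower. The other, a probe set of Mrpl38, changed by -0.07 and was not called. These 5 genes were picked by hand and do not cover the whole protuberance. Of all members 52.8% were lower, and of all probe sets 20.4%.

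Mrpl11, at the base of the stalk where the translation factors dock, had ratios of 1.57, 1.42, 1.97 and 1.80 untreated and 0.61, 0.57, 0.69 and 0.75 treated on probe set 1437131_x_at. These groups did not overlap, and the probe set fell by 1.30 on the log2 scale (SE 0.13, limma adjusted p = 0.000264). Of the other 3 Mrpl11 probe sets, 1417918_at also fell, by 0.85, while 1437839_x_at at -0.51 and 1438080_at at 0.48 were not called. Mrpl12, the stalk protein that also binds the mitochondrial RNA polymerase, had ratios of 1.44, 1.18, 1.20 and 1.48 untreated and 0.81, 0.76, 0.88 and 0.86 treated. All untreated arrays were above all treated arrays, and Mrpl12 fell by 0.64 on the log2 scale (SE 0.11, limma adjusted p = 0.00236). Mrpl10, the remaining stalk gene, fell by 0.71.

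Mrpl14, a large subunit protein of bacterial origin, had the smallest adjusted p of the named members. Its ratio was 2.08, 1.85, 2.02 and 2.06 untreated and 0.99, 0.88, 0.97 and 0.92 treated. Both groups were tight and well apart, and Mrpl14 fell by 1.05 on the log2 scale (SE 0.08, limma adjusted p = 9.97e-05). Mrpl42, specific to mitochondria, had ratios of 1.80, 1.38, 1.53 and 2.04 untreated and 0.74, 0.65, 0.94 and 0.72 treated on probe set 1418439_at, with no overlap. That probe set fell by 1.09 (SE 0.15, limma adjusted p = 0.00108). The other Mrpl42 probe set spread from 0.15 to 1.31 over the 8 arrays and was not called, and as 1 value per gene Mrpl42 was not called either (-0.35, limma adjusted p = 0.464).

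Of the peptide exit tunnel and its rim, where the new chain leaves the large subunit, 6 genes were looked at, with 1 probe set each. They were picked by hand and are not a full list of that region, so their calls give no share for it. Of all members, 52.8% were called lower. Mrpl4, Mrpl22, Mrpl23 and Mrpl45, the last of which anchors the ribosome to the inner membrane, were called lower. Mrpl22 fell by 1.0, Mrpl23 by 0.82, Mrpl4 by 0.72 and Mrpl45 by 0.62 on the log2 scale. Mrpl24 at -0.13 and Mrpl47 at -0.28 were not called.

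In the small subunit the largest fall was that of Mrps25, a protein specific to mitochondria. Probe set 1418716_at had ratios of 2.18, 2.02, 2.04 and 1.13 untreated and 0.81, 0.25, 0.45 and 0.32 treated. Untreated replicate 4 was well under the other untreated arrays but still above every treated array. The probe set fell by 1.97 on the log2 scale (SE 0.35, limma adjusted p = 0.00344). A second Mrps25 probe set, 1449194_at, had ratios of 1.61, 1.58, 1.57 and 1.86 untreated and 0.82, 0.56, 0.98 and 0.80 treated, and fell by 1.04 (SE 0.16, limma adjusted p = 0.00158). The third, 1418717_at, ranged from 0.15 to 2.08 within the untreated group and was not called (-0.15).

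Mrps11, a protein of bacterial origin, had ratios of 2.39, 1.54, 1.60 and 2.41 untreated and 0.77, 0.61, 1.20 and 0.56 treated on probe set 1460195_at. AP20187 replicate 3 was the nearest to the untreated arrays but did not reach them. The probe set fell by 1.31 on the log2 scale (SE 0.26, limma adjusted p = 0.00532), and the other Mrps11 probe set was not called (-0.32). Mrps16, also of bacterial origin, had ratios of 1.78, 1.42, 1.62 and 1.75 untreated and 0.62, 0.61, 0.90 and 0.59 treated. Again AP20187 replicate 3 was the highest treated array, the groups did not overlap, and Mrps16 fell by 1.23 (SE 0.15, limma adjusted p = 0.000561).

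Both probe sets of Mrps15, another protein with a bacterial homologue, fell. Probe set 1456109_a_at had ratios of 2.53, 1.62, 1.71 and 2.93 untreated and 0.85, 0.81, 0.89 and 0.91 treated. The untreated arrays were widely spread and the treated arrays close together, with no overlap. It fell by 1.25 on the log2 scale (SE 0.19, limma adjusted p = 0.00161), and 1449294_at fell by 1.02. Mrps12, a protein of the decoding centre, had ratios of 1.01, 1.0, 1.02 and 1.28 untreated and 0.74, 0.61, 0.68 and 0.67 treated. It fell by 0.63 (SE 0.13, limma adjusted p = 0.00654), with all treated arrays below the untreated ones.

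The 3 copies of the bacterial S18 protein did not move alike. Mrps18c, the copy at the bacterial position in the small subunit, had ratios of 1.95, 1.63, 1.77 and 1.75 untreated and 0.88, 0.69, 0.90 and 0.70 treated. These groups were far apart, and Mrps18c fell by 1.12 on the log2 scale (SE 0.11, limma adjusted p = 0.000261). Mrps18a, the copy in the large subunit, had ratios of 1.08, 0.82, 0.93 and 1.22 untreated and 0.81, 0.75, 0.92 and 0.90 treated, which overlapped, and was not called (-0.24, SE 0.14, limma adjusted p = 0.256). Mrps18b, which sits in the small subunit, had ratios of 0.79, 0.68, 0.76 and 0.89 untreated and 1.0, 1.0, 1.06 and 0.92 treated. All 4 treated arrays lay above the untreated ones, but Mrps18b missed the threshold (0.34, SE 0.12, limma adjusted p = 0.059). It passed in 5 of 15 alternatives, among them median centring of the arrays (limma adjusted p = 0.0281). In the rest the limma adjusted p went up to 0.129. The differences between the 3 copies were not tested.

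Only 4 member probe sets, for Mrpl9, Mrps31 and Mrpl50, rose with AP20187. Mrpl9, a large subunit protein with a bacterial homologue, had ratios of 0.68, 0.58, 0.67 and 0.73 untreated and 1.03, 1.01, 0.98 and 0.99 treated on probe set 1427297_at. The groups were tight and apart, and the probe set rose by 0.56 on the log2 scale (SE 0.12, limma adjusted p = 0.00808). The second Mrpl9 probe set, 1430976_a_at, rose by 0.45 (SE 0.11, limma adjusted p = 0.0138) from 0.77, 0.70, 0.67 and 0.77 to 0.97, 0.97, 1.09 and 1.03.

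Mrps31, a small subunit protein specific to mitochondria, had ratios of 0.81, 0.78, 0.81 and 0.88 untreated and 1.07, 0.97, 1.11 and 1.11 treated. It rose by 0.36 on the log2 scale (SE 0.10, limma adjusted p = 0.0208), with no overlap. The call was lost without AP20187 replicate 1 (limma adjusted p = 0.0565) or replicate 4 (limma adjusted p = 0.062). Mrpl50, a large subunit protein specific to mitochondria, rose by 0.34 (SE 0.11, limma adjusted p = 0.046) on probe set 1451266_at, from 0.81, 0.75, 0.70 and 0.85 to 0.94, 0.94, 1.06 and 1.06. Its other probe set was not called (-0.11), and as 1 value per gene Mrpl50 was not called (0.12, limma adjusted p = 0.484). The Mrpl50 call passed in 7 of 15 alternatives and was lost on leaving out any 1 array other than untreated replicate 4. Both Mrpl9 probe sets passed in all 15.

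**Figure D3:**
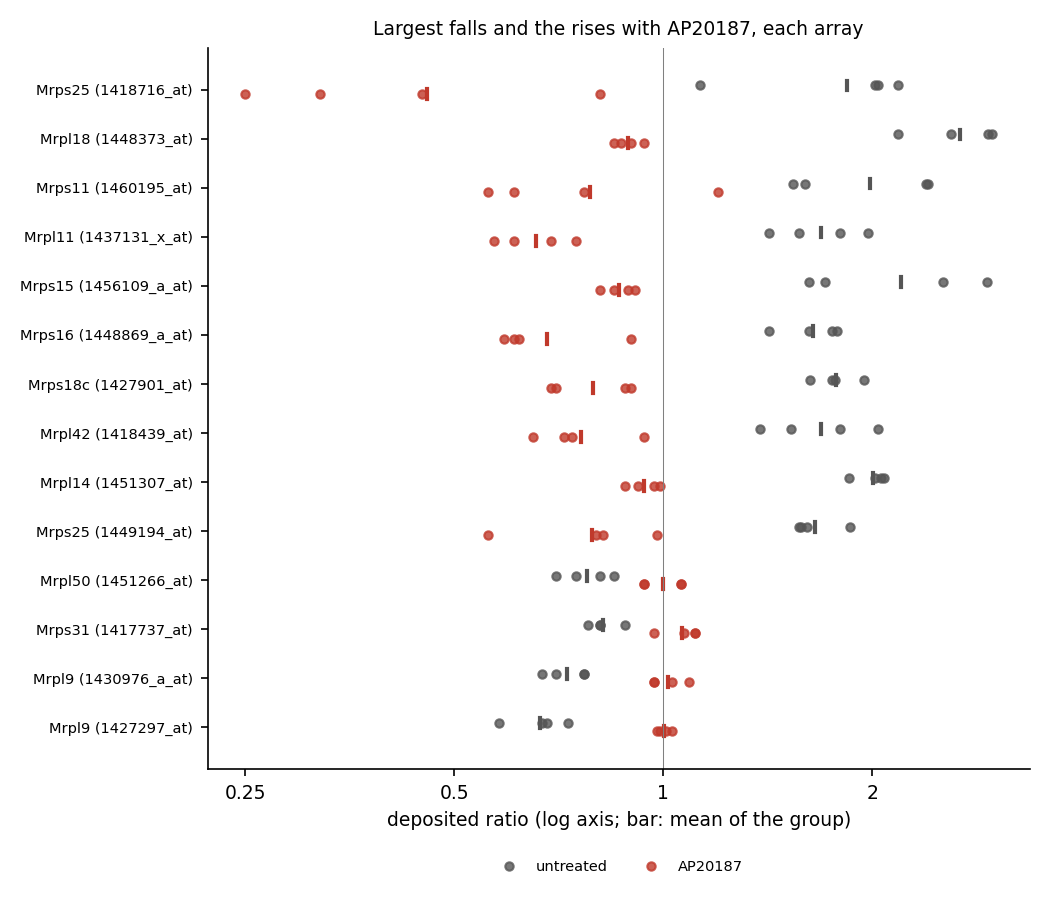
Deposited ratio in each array, on a log axis, for the 10 member probe sets with the largest falls and the 4 that rose with AP20187. Grey points are the 4 untreated and red points the 4 treated arrays, and bars are group means. Treated and untreated arrays do not overlap in any of these rows, as the rule for choosing them required.

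Promoter windows from RefSeq (GRCm38.p6), from 250 bases before to 50 bases after each annotated start, were matched by Entrez gene number to 65 of the 74 member genes. They were searched on both strands for motifs of factors tied to nuclear genes of mitochondria and to the ISR. The ETS motif bound by GABP, CCGGAAGT, was in the windows of 11 member genes (16.9%) and of 4.31% of all genes. The YY1 motif, AAGATGGC, was also in 11 (16.9%) and in 3.19% of all genes, and the NRF1 motif core, GCATGCGC, in 8 (12.3%) and 3.05%. The CRE, TGACGTCA, was in 2 (3.08% against 2.03%), and the composite C/EBP-ATF motif, TGATGNAAT, in none (0% against 1.08%). No motif contains another, although the NRF1 core can match both strands at overlapping positions.

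The windows of members were rich in CG. They held a median of 21 CG dinucleotides, against 7 in all windows. Among genes with a window of at least 10 CG, ETS was in 15.9% of 63 member genes and 8.17% of all genes, YY1 in 17.5% and 4.80%, and NRF1 in 12.7% and 6.05%. The CRE turned direction there, at 3.17% of member genes and 3.62% of all genes, and the C/EBP-ATF motif was in 0% and 0.323%. A match is a description of the letters and shows no binding.

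Promoters of 4 members named above are shown because they hold a match, marked in capitals, and differ in how the gene moved. Each runs 5′ to 3′ on the gene's strand from 250 bases before to 30 bases after the start. Mrpl18 lies at chr17:12916062-12916341 (minus strand) and Mrps18c at chr5:100798509-100798788 (plus strand), both with an ETS match and both lower with AP20187. Mrps11 lies at chr7:78782881-78783160 (plus strand), with a YY1 match, and was lower on 1 of its probe sets. Mrpl9 lies at chr3:94443086-94443365 (plus strand), with an NRF1 match on both strands, and was higher.
Mrpl18: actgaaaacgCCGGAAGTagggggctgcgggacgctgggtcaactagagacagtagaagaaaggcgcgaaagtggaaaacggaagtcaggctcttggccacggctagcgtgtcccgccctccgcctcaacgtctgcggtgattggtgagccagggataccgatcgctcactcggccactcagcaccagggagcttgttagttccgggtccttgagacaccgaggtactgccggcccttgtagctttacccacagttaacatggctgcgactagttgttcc
Mrps18c: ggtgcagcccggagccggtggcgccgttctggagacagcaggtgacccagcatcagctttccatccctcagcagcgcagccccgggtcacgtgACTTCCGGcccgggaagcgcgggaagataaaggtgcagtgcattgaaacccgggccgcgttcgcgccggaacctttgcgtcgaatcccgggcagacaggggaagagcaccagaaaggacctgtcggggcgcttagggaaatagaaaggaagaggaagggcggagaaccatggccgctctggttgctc
Mrps11: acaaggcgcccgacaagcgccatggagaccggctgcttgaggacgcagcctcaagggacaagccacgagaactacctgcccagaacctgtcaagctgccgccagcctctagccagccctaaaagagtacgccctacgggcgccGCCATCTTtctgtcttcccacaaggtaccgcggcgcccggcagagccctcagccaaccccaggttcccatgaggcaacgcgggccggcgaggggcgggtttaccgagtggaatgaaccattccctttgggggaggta
Mrpl9: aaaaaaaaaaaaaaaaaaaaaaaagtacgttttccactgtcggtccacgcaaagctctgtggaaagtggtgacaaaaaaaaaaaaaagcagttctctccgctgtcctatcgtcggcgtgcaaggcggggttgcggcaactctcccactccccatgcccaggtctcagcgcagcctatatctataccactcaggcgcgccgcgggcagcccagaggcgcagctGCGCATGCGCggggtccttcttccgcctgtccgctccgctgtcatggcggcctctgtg

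Matches were found among members with and without a call. Of the 45 matched genes with a probe set lower with AP20187, 9 held ETS, 9 held YY1 and 4 held NRF1. Of the 17 with none called, 2 held ETS, 2 held YY1 and 3 held NRF1, and of the 3 with a probe set higher, Mrpl9 alone held a match. No association was tested.

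Many members share their promoter region with another gene. In 24 of the 65 (36.9%) a gene on the other strand started within 1000 bases, head to head, which held for 12.3% of all genes. Mrps11 and Mrpl46 form such a pair within the family, with starts 42 bases apart, and both fell (Mrpl46 by 0.79 on the log2 scale, SE 0.10, limma adjusted p = 0.000848). Of 12 members that fell and whose partner outside the family was measured, the partner was called lower in 2, higher in 1 and not called in 9. The pair that moved apart was Mrpl18, which fell by 1.53, and Tcp1, a subunit of the cytosolic chaperonin, which rose by 0.41 (SE 0.11, limma adjusted p = 0.0218) from a start 238 bases away. Mrpl50 and its partner Zfp189 both rose, Zfp189 by 1.34.

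Members called with HFD were more often lower than higher. Averaged over genotypes, 30 of 127 probe sets were called lower (23.6%) and 10 higher (7.87%), where 14.0% of all probe sets were called lower, 13.5% higher and 27.5% in either direction. The median change was -0.17 over the members and -0.07 over all probe sets. Every HFD array lay below every LFD array in 36 members (15.9% of all probe sets) and above in 9 (12.9%). In the large subunit 20 of 88 were lower and 9 higher, and in the small subunit 10 of 39 were lower and 1 higher. These counts rest on each array, and leaving out any 1 of the 8 lowered them. The shares over all probe sets fell as well. In percentage points the members' share called lower came closer to the one over all probe sets, though not each time in proportion. The median change without HFD wildtype replicate 1 was -0.16 over the members and -0.05 over all probe sets, and without its replicate 2 -0.20 and -0.07. Without LFD wildtype replicate 2 it was -0.17 and -0.08.

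The HFD and LFD arrays also differed in the 3′ to 5′ signal of control transcripts, a measure of RNA quality. The log2 difference of the 3′ and 5′ beta-actin probe sets was -0.16 to 0.21 in the LFD arrays and -0.71 to -0.33 in the HFD arrays. That of Gapdh was 0.04 to 0.22 and -0.31 to -0.15. The groups did not overlap on either control, and the part of this in the diet result was not tested. In the TTR::Fv2E-PERK experiment the Gapdh difference was -0.06 to -0.01 untreated and -0.14 to 0.19 treated, which overlapped, and that of beta-actin was -0.18 to -0.02 and -0.04 to 0.15.

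The largest diet falls were in the large subunit. Mrpl1, the protein of the L1 stalk that guides spent tRNA out, had LFD ratios of 1.49 and 0.96 (wildtype) and 2.36 and 1.19 (Alb::GC) on probe set 1460508_at, and HFD ratios of 0.13 and 0.19 (wildtype) and 0.19 and 0.24 (Alb::GC). All HFD arrays were far below all LFD arrays, and the probe set fell by 2.65 on the log2 scale (SE 0.33, limma adjusted p = 0.00521). The other Mrpl1 probe sets did not share this change, at 0.11 and 0.19, and were not called. Mrpl41, specific to mitochondria, had LFD ratios of 1.81 and 1.76 (wildtype) and 0.99 and 1.06 (Alb::GC) on 1428588_a_at, and HFD ratios of 0.78 and 0.78 (wildtype) and 0.70 and 0.57 (Alb::GC). No HFD array reached an LFD array. It fell by 0.90 on the log2 scale (SE 0.11, limma adjusted p = 0.00505). The remaining Mrpl41 probe sets, at -0.31 and -0.37, were not called, and as 1 value per gene Mrpl41 was not called (-0.53, limma adjusted p = 0.0968).

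At the tunnel rim, Mrpl23 fell by 0.79 (SE 0.16, limma adjusted p = 0.0182) and Mrpl47 by 0.73 (SE 0.14, limma adjusted p = 0.0149) on the log2 scale. Mrpl47 had LFD ratios of 1.15 and 1.32 (wildtype) and 0.93 and 1.02 (Alb::GC), and HFD ratios of 0.56 and 0.55 (wildtype) and 0.71 and 0.77 (Alb::GC). No HFD array reached an LFD array. In the small subunit Mrps11 fell by 0.66 on probe set 1460195_at (SE 0.14, limma adjusted p = 0.0201). Of the S18 copies, Mrps18a fell by 0.64 (limma adjusted p = 0.018) and Mrps18c by 0.59 (limma adjusted p = 0.0405), while Mrps18b was not called (-0.37). The call of Mrps18c passed in 7 of 15 alternatives (limma adjusted p up to 0.107), that of Mrps18a in 11 (up to 0.0559), that of Mrps11 in 10 (up to 0.0596) and that of Mrpl23 in 13 (up to 0.0546). Mrpl12 at -0.38 and Mrps12 at -0.21 were not called.

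Mrpl11 was the 1 gene with diet calls in opposite directions. Its probe sets 1437131_x_at, 1437839_x_at and 1417918_at fell by 0.69, 0.65 and 0.58 on the log2 scale, with limma adjusted p of 0.0104, 0.0179 and 0.0395. Probe set 1438080_at had LFD ratios of 1.12 and 2.06 (wildtype) and 0.17 and 0.80 (Alb::GC), and HFD ratios of 3.91 and 3.23 (wildtype) and 4.27 and 3.02 (Alb::GC). It rose by 2.14 (SE 0.45, limma adjusted p = 0.0201), and its LFD arrays were widely spread. The 4 probe sets list different sequence accessions. Of 15 alternatives, 1437131_x_at passed in 14, 1437839_x_at in 11, 1438080_at in 10 and 1417918_at in 5, and as 1 value per gene Mrpl11 was at 0.0527 and not called.

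Rises with HFD came mostly from single probe sets of a gene. Mrpl19, a large subunit protein with a bacterial homologue, had LFD ratios of 0.04 and 0.04 (wildtype) and 1.08 and 0.71 (Alb::GC) on 1421913_at, and HFD ratios of 2.47 and 1.62 (wildtype) and 1.91 and 2.94 (Alb::GC). The LFD wildtype arrays stood apart from all others, and the probe set rose by 2.95 on the log2 scale (SE 0.26, limma adjusted p = 0.00218). Mrpl19 probe set 1450405_at rose by 0.93 (SE 0.13, limma adjusted p = 0.00674), with LFD ratios from 0.46 to 1.17 and HFD ratios from 1.24 to 1.72. The third, 1421914_s_at, was not called (0.30), although all 3 list the same accession.

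Mrpl51, specific to mitochondria, rose by 1.28 on 1416879_at (SE 0.24, limma adjusted p = 0.0148), where the LFD Alb::GC arrays were low at 0.34 and 0.18. Its other probe sets, at -0.02 and -0.12, were not called. Mrpl3, which has a bacterial homologue, rose by 0.84 on 1422463_a_at (limma adjusted p = 0.0268), with its other probe sets at -0.07 and 0.04 not called. Mrpl45, measured by 1 probe set, rose by 0.66 (SE 0.19, limma adjusted p = 0.0431), although its LFD and HFD arrays overlapped. The Mrpl45 call passed in 6 of 15 alternatives (limma adjusted p up to 0.11), that of Mrpl3 in 9 (up to 0.268, as 1 value per gene) and that of Mrpl51, whose arrays also overlapped, in 13 (up to 0.057).

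**Figure D4:**
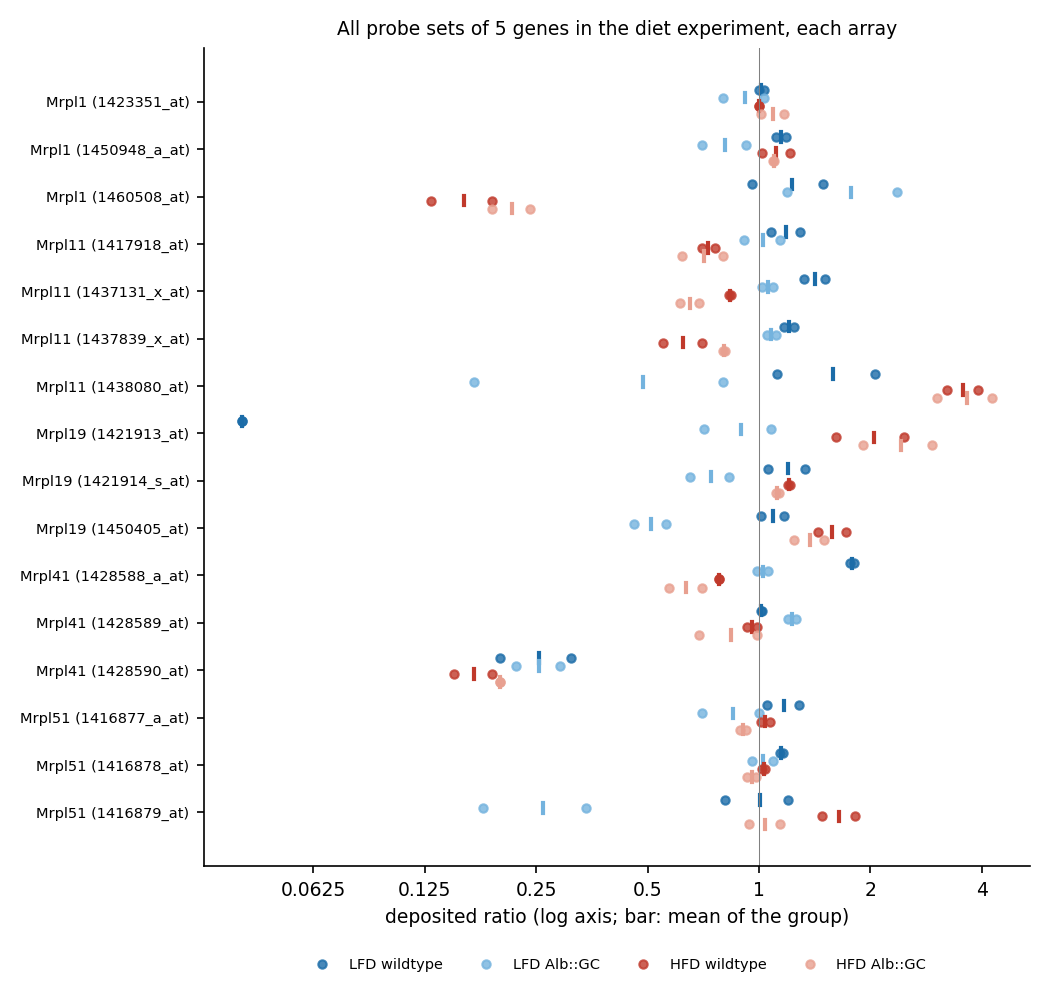
Deposited ratio in each diet array, on a log axis, for every probe set of Mrpl1, Mrpl11, Mrpl19, Mrpl41 and Mrpl51. Blue points are LFD and red points HFD, darker for wildtype and lighter for Alb::GC, with 2 arrays a group and bars for the group mean. In Mrpl1, Mrpl19 and Mrpl11 a single probe set moves far more than the others of the same gene.

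Within each genotype the counts were smaller. In wildtype, HFD gave 19 members lower and 2 higher, where 6.63% of all probe sets were lower, 7.97% higher and 14.6% in either direction, with a median of -0.24 over members and -0.11 over all. Both HFD arrays lay below both LFD arrays in 72 members (36.0% of all probe sets) and above in 20 (26.7%). After median centring the split was 15 lower and 4 higher. Leaving out any 1 of the 8 arrays lowered the main counts of 19 and 2. The members' share called lower was then near or under the share over all probe sets. Only without either LFD Alb::GC array did it stay clearly above. Without LFD wildtype replicate 2 the median change was -0.29 over members and -0.14 over all. In Alb::GC, HFD gave 1 lower and 3 higher, where 2.13% were lower, 4.64% higher and 6.77% in either direction, with medians of -0.08 and -0.02. There 51 members had both HFD arrays below (30.9% of all probe sets) and 32 above (29.1%). Leaving out any 1 array gave 0 to 2 lower and 0 to 2 higher, with 2 of each without LFD wildtype replicate 2.

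In wildtype the largest falls were Mrpl1 1460508_at by 2.59, Mrpl41 1428588_a_at by 1.14, Mrpl47 by 1.08, Mrpl11 1437839_x_at by 0.90, Mrps18b by 0.88 and Mrps18a by 0.84 on the log2 scale, at limma adjusted p of 0.012 to 0.0337. In that order these calls passed in 11, 12, 11, 7, 9 and 7 of 15 alternatives. Mrps18b had ratios of 1.56 and 1.37 on LFD and 0.73 and 0.81 on HFD in wildtype. Its Alb::GC arrays were 0.99 and 0.76 on LFD and 1.03 and 0.91 on HFD, which overlapped (0.15, not called). The rises in wildtype were Mrps15 1449294_at by 0.68 (limma adjusted p = 0.0386) and Mrpl19 1421913_at by 4.51 (limma adjusted p = 0.0044). They passed in 5 and 14 of 15 alternatives. The Mrpl19 value starts from ratios near the smallest in the table, and it was 5.33 with 0.01 in place of 0.05 and 3.20 with 0.2. Mrps18c at -0.83, Mrpl12 at -0.56 and Mrps12 at -0.19 were not called.

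In Alb::GC the calls were Mrpl1 1460508_at, which fell by 2.71 (limma adjusted p = 0.0309), and Mrpl19 1450405_at, Mrpl51 1416879_at and Mrpl11 1438080_at, which rose by 1.34, 1.86 and 3.07 (limma adjusted p = 0.0186, 0.0346 and 0.0437). In that order these calls passed in 8, 11, 8 and 5 of 15 alternatives. Mrpl33, at 0.84, missed the threshold (limma adjusted p = 0.0531). Of the genes always given, Mrps18a was at -0.43, Mrps18c at -0.35, Mrps12 at -0.24 and Mrpl12 at -0.20, none called.

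Genotype made no difference that limma called. On LFD, 0 of 127 members passed between Alb::GC and wildtype (0% of all probe sets), with 24 at an unadjusted p under 0.05. Even so 104 of the 127 lay below 0, with a median of -0.26 against -0.06 over all probe sets. Both Alb::GC arrays lay below both wildtype arrays in 67 members (23.3% of all probe sets) and above in 7 (15.5%). Hepatocyte markers lay lower in the same arrays, with 17 of 20 below 0, both Alb::GC arrays below both wildtype arrays in 13 of 20, and summed log2 values of -1.87 to 1.44 in Alb::GC and 1.77 to 3.15 in wildtype, which did not overlap. Their part in the members' shift was not tested. The small subunit had 34 of 39 members below 0 and the large subunit 70 of 88. The members nearest to a call were Mrpl19 1421913_at at 3.36 (limma adjusted p = 0.0992), Mrpl19 1450405_at at -1.03 (limma adjusted p = 0.185) and Mrpl51 1416879_at at -1.79 (limma adjusted p = 0.208).

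On HFD, 0 members passed (0.133% of all probe sets, with 0.0972% lower and 0.0354% higher), with 3 at an unadjusted p under 0.05 and 75 of 127 below 0. Both Alb::GC arrays lay below both wildtype arrays in 29 members (21.9% of all probe sets) and above in 21 (24.6%). The smallest p-values belonged to Mrpl42 1437922_at at -2.40 (limma adjusted p = 0.278), Mrps15 1449294_at at -0.47 and Mrpl38 1430610_at at -0.77. The test of the genotype by diet interaction called 0 members (0% of all probe sets), with 9 at an unadjusted p under 0.05 and a median of 0.23 against 0.08 over all. Its smallest p-values were at Mrpl19 1421913_at (-3.13, SE 0.51, limma adjusted p = 0.142), Mrps18b (1.03, SE 0.26, limma adjusted p = 0.263) and Mrpl19 1450405_at (0.83, SE 0.26, limma adjusted p = 0.343). The different counts of HFD calls in wildtype and Alb::GC are thus no shown difference between the genotypes.

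The 2 experiments share no array, so their calls can be set against each other. Of the members, 19 were lower both with AP20187 and with HFD averaged over genotypes, which is 28.4% of the 67 and 63.3% of the 30. Over all probe sets, 901 were lower in both, 19.5% of the AP20187 calls and 28.4% of the HFD calls. These shares follow in part from how often each set was called at all. The 63.3% stands beside 52.8% of all members lower with AP20187, and the 28.4% of the 67 beside 23.6% of all members lower with HFD. Over all probe sets the 28.4% stands beside 20.4% and the 19.5% beside 14.0%. The 19 included Mrpl14, Mrpl23, Mrpl41, Mrpl46, Mrps11, Mrps16 and Mrps18c. Mrpl50 was the 1 member higher in both, on an AP20187 call that most alternatives lost. That is 1 of the 4 members higher with AP20187, beside 760 of 3107 over all probe sets. In the opposite sense, Mrpl3, Mrpl37, Mrpl45 and Mrps15 1449294_at were lower with AP20187 and higher with HFD. These are 4 of the 67 members lower with AP20187, beside 574 of 4617 over all probe sets. The HFD call of Mrpl45 passed in 6 of 15 alternatives and that of Mrpl3 in 9.

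Mrpl18, set out here after its values were seen, fell in the AP20187 comparison and had no diet call. Against its fall of 1.53 on the log2 scale, its LFD ratios were 0.94 and 0.76 (wildtype) and 0.89 and 1.0 (Alb::GC) and its HFD ratios 1.0 and 1.07 (wildtype) and 1.07 and 0.99 (Alb::GC), with overlap between the diets. Whether its 2 responses differ was not tested, because the experiments were scaled apart.

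Other parts of the mitochondrial translation system moved unevenly with AP20187. Of 5 probe sets for ribosome subunits whose symbols lie outside the Mrp naming, 3 were lower, those of Gadd45gip1 (by 1.09 on 1 of its 2 probe sets, the other at 0.0979), Chchd1 (by 0.70) and Dap3 (by 0.56). Of 14 probe sets for translation factors, 6 were lower and 0 higher. Among them were Mtfmt, which formylates the initiator tRNA (by 1.12), Slirp, a partner of Lrpprc in mRNA stability (by 1.06), and the elongation factor Gfm1 (by 0.63 on 1 of its 2 probe sets, the other at -0.34 and not called). Assembly and rRNA modification factors had 6 higher and 6 lower of 34, or 17.6% each way. That is near the shares over all probe sets, 13.7% higher and 20.4% lower. Mrm2, a methyltransferase of the large subunit rRNA, fell by 1.66, Fastkd2, an RNA-binding assembly factor, fell by 0.68 to 0.90 on its 3 probe sets and Mterf3, needed for large subunit assembly, rose by 0.85.

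Genes of mitochondrial DNA replication and transcription had more rises than falls with AP20187, 8 higher and 2 lower of 23. The transcription factor Nrf1 rose on all 3 of its probe sets, by 1.52, 0.77 and 0.36, and Polg2, the accessory subunit of the mitochondrial DNA polymerase, by 0.78. Oxidative phosphorylation genes, whose products the mitochondrial ribosome helps to complete, had 125 of 148 probe sets lower and 0 higher, with a median of -0.73. Cytosolic ribosomal proteins had 50 of 100 lower and 2 higher, with a median of -0.38. No difference between lists was tested.

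With HFD averaged over genotypes, the other subunits had 0 of 5 called. Assembly factors had 4 higher and 3 lower of 34 (11.8% and 8.82%), beside 13.5% higher and 14.0% lower over all probe sets. Among them Mterf3 was up by 0.73. The GTPase Mtg1 and the rRNA chaperone Eral1 were down, at -0.90 and, on 1 of 5 Eral1 probe sets, -0.70. Translation factors had 3 higher and 2 lower of 14. Lrpprc, an mRNA stability factor measured by 1 probe set, rose by 0.85. The elongation factors Tufm and Gfm1 rose by 0.97 and 0.77 on 1 probe set each, while their other probe sets lay the other way and were not called, at -1.39 and -0.26 for Tufm and -0.40 for Gfm1. Replication and transcription genes had 10 higher and 2 lower of 23. The coactivator Ppargc1a rose on all 5 of its probe sets, by 0.90 to 2.33. The DNA polymerase Polg rose by 1.71 on 1 of 3, with the others at 0.0161 and -0.0371 and not called. Nrf1 was lower here, by 1.09 and 0.45 on the probe sets 1420978_at and 1424787_a_at, with 1434627_at at 0.0453 and not called. Oxidative phosphorylation had 51 lower and 11 higher of 148, and cytosolic ribosomal proteins 33 lower and 3 higher of 100.

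**Figure D5:**
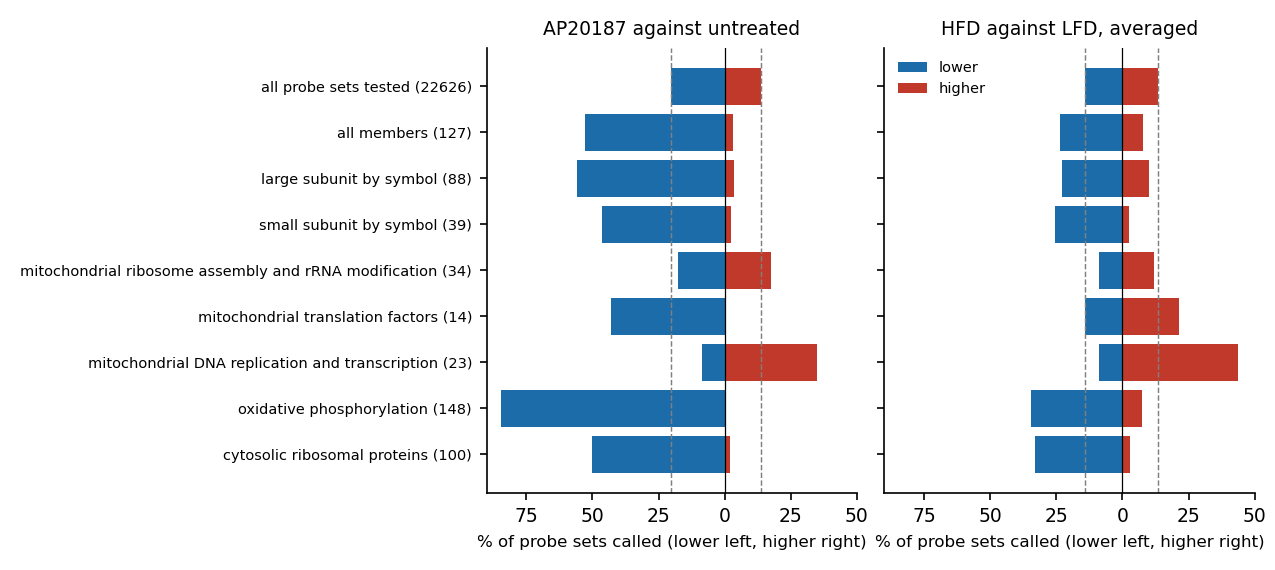
Share of probe sets called lower (bars to the left) and higher (bars to the right), in percent, for all probe sets tested, the members and related lists, with the number of probe sets in brackets. The left panel is AP20187 against untreated and the right panel HFD against LFD averaged over genotypes, and dashed lines mark the shares over all probe sets. Members were called lower in 52.8% on the left and 23.6% on the right.

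Markers of liver cell types moved with AP20187 as well, where 20.4% of all probe sets were lower and 13.7% higher. Of hepatocyte marker probe sets 15 of 20 were lower and 3 higher, and their summed log2 value was 9.06 to 10.84 in the untreated and -2.68 to 1.95 in the treated arrays. The 3 probe sets of Otc, which fell by 3.32, 1.49 and 1.41, weigh most in this sum. Hnf4a lay the other way, with all treated arrays above all untreated arrays on 3 of its 4 probe sets. Its 1450447_at was at 0.46 to 0.67 untreated and 0.96 to 1.16 treated. The same ranges were 0.61 to 0.88 and 1.04 to 1.2 on 1421983_s_at, and 0.62 to 0.76 and 1.0 to 1.16 on 1427001_s_at. On 1427000_at they overlapped, at 0.67 to 1.11 and 0.94 to 1.31. Stellate cell and fibroblast markers had 10 of 15 lower (8.35 to 13.33 against -4.65 to -2.78), macrophage markers 8 of 15 (4.54 to 5.41 against -4.15 to 1.78) and endothelial markers 5 of 11 (2.43 to 5.94 against -2.12 to 1.42). Lymphocyte and neutrophil markers had 1 of 11 lower (-0.41 to 4.25 against -6.90 to -2.49), and cholangiocyte markers 0 of 5 lower and 1 higher (-0.46 to 2.56 against -1.5 to 2.37). No marker was listed at 0. In whole liver, fewer cells of a type and less RNA per cell cannot be told apart, and the part of these shifts in the members' fall was not tested.

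With HFD averaged over genotypes, hepatocyte markers had 6 of 20 lower and 4 higher, and macrophage markers 3 of 15 higher and 0 lower. Over all probe sets 14.0% were lower and 13.5% higher. The summed hepatocyte value on LFD was 1.77 to 3.15 for wildtype and -1.87 to 1.44 for Alb::GC, and on HFD 1.58 to 1.94 for wildtype and 0.27 to 2.93 for Alb::GC. These ranges overlapped between the diets, while those of the genotypes on LFD did not. The summed macrophage value was 0.65 to 1.21, -2.80 to 4.40, 4.20 to 5.73 and -1.98 to 7.71 in the same order. Stellate and fibroblast markers had 3 of 15 lower, endothelial markers 1 of 11 higher, lymphocyte and neutrophil markers 1 of 11 higher (S100a9), and cholangiocyte markers 2 of 5 lower and 1 higher. In wildtype alone, where most of the within-genotype member calls lay, 3 of the 11 lymphocyte and neutrophil markers were higher with HFD. These were the neutrophil genes S100a8 (by 3.0 on the log2 scale), S100a9 (by 2.48) and Ngp (by 0.74). The list as a whole was split, with 6 above 0 and 5 below, a median of 0.05 and a lowest value of -2.17. Both HFD arrays lay above both LFD arrays in 4 of the 11 (26.7% of all probe sets) and below in 4 (36.0% of all probe sets). In Alb::GC 9 of the 11 lay below 0, and none was called. S100a8 was 0.36 and 0.92 on LFD and 5.40 and 4.60 on HFD in wildtype. The part of these markers in the diet result was not tested.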

How the data were processed

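Liver RNA of 16 mouse samples, labelled as biotin cRNA, was hybridised to Affymetrix arrays, 1 sample per array. The values the authors deposited were read as a linear ratio per probe set and array; the summary method, scaling, denominator and genome build were not given in the sources used here. No array depth exists, and the number of arrays limits the precision. The 64 control probe sets were left out. Of the rest, 20380 had 1 symbol in the platform annotation, whose names may be outdated, 1555 had none and 691 had several.

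Each experiment was fitted on its own 8 arrays with limma 3.58.1 in R 4.3.3 on log2(ratio + 0.05), with a variance trend and Benjamini-Hochberg adjustment over 22626 probe sets, two-sided. The TTR::Fv2E-PERK fit had 6 residual degrees of freedom plus 2.06 prior, and the diet fit, with 4 groups sharing 1 spread, 4 plus 2.3. Alternatives changed the offset, array scaling, low-value filter, variance trend, probe sets per gene and arrays. The steps were tested on simulated data. Replicate pairs correlated at 0.442 to 0.658 over log2 values and shared 1.44% to 2.46% of their values, so none was counted as a duplicate.

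Named members were the 10 largest falls and rises with AP20187 whose arrays did not overlap, the 6 largest diet falls and rises, the 5 smallest p-values where fewer than 5 passed, 3 for genotype and interaction, genes with opposite calls, and Mrps18a, Mrps18b, Mrps18c, Mrpl12 and Mrps12. Up to 3 called members of each pathway list were named. Members outside this rule are named for their role or a shared promoter, after their values were seen. The members and lists were chosen with earlier results of these data known, so nothing here is independent support for them. Promoters were read with pandas 2.3.3 in Python 3.11.15 and plots drawn with matplotlib 3.10.9.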

Additional observations from a re-analysis of the deposited data

Results flagged for a closer look

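Among the named members and the array medians, 38 groups of 4 arrays were searched for an array far from the other 3 of its group, and 4 were found, where chance alone marks about 1 group in 20. Mrps25 was marked on both of its called probe sets, each time in untreated replicate 4 but in opposite senses. That array had a ratio of 1.13 on 1418716_at, where the other untreated arrays had 2.02 to 2.18, and 1.86 on 1449194_at, where the others had 1.57 to 1.61. In Mrps12 untreated replicate 4 had 1.28, above 1.0 to 1.02 in the others. In Mrps16 AP20187 replicate 3 had 0.90, above 0.59 to 0.62 in the other treated arrays. Without any of these arrays the named falls of Mrps25, Mrps12 and Mrps16 still passed the threshold.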

How the results depend on the processing

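No paired analysis was possible because the labels number the arrays only in sequence. The lower count with AP20187, 67 in the main fit, was 60 after quantile normalization and 65 after median centring. With 1 array left out it was 61 to 70, with 2 to 5 higher. With 1 value per gene it was 45 of 74, a count of genes and not of probe sets. The other settings left it at 67. With HFD averaged over genotypes, leaving out 1 array gave 10 to 19 lower and 2 to 8 higher: 16 and 8 without LFD wildtype replicate 1, 19 and 4 without its replicate 2, 18 and 5 without LFD Alb::GC replicate 1, 15 and 8 without its replicate 2, 10 and 3 without HFD wildtype replicate 1, 12 and 2 without its replicate 2, 13 and 2 without HFD Alb::GC replicate 1, and 14 and 6 without its replicate 2. Each time the share of all probe sets called lower fell too. The members' share came closer to it in percentage points, though not each time in proportion. The lone array left in a group is then assumed to vary like the other groups. HFD in wildtype gave 0 to 10 lower and 0 to 1 higher, with 0 lower without either HFD wildtype array, 1 and 2 without LFD wildtype replicates 1 and 2, 4 without either HFD Alb::GC array and 10 without either LFD Alb::GC array. HFD in Alb::GC gave 0 to 2 lower and 0 to 2 higher, with 0 of both without LFD Alb::GC replicate 1 or either HFD Alb::GC array. For HFD in wildtype, the members' share called lower stayed clearly above that of all probe sets only without either LFD Alb::GC array. Otherwise it was near or under that share. Genotype and interaction gave 0 members throughout.

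The higher count for HFD in wildtype was 4 after median centring, 1 without the variance trend and 1 with 1 value per gene, and its lower count was 11 after quantile normalization. With 1 value per gene, which averages probe sets, HFD in Alb::GC gave 1 higher, HFD averaged gave 4 higher, the diet change of Mrpl11 became 0.0527 in place of the falls of its 3 probe sets, and Mrpl19 1450405_at became 0.56 for genotype on LFD and -0.58 for the interaction. Values never called also changed sign. Without LFD wildtype replicates 1 and 2 in turn, Mrps12 was 0.0289 and -0.40 for HFD in wildtype, 0.22 and -0.21 for genotype on LFD and -0.27 and 0.16 for the interaction. Without LFD Alb::GC replicate 2 those last 2 values were -0.0614 and 0.0128, and without HFD Alb::GC replicate 2 the interaction was 0.0627. Without HFD Alb::GC replicates 1 and 2 in turn, genotype on HFD was -0.17 and 0.0707 for Mrps12, -0.0803 and 0.000341 for Mrps18a and -0.0264 and 0.27 for Mrps18c. Mrps18b for HFD in Alb::GC was 0.33 and -0.0305 without LFD Alb::GC replicates 1 and 2 in turn. Beyond the averaging and the smaller number of arrays, the cause was not tested.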
